A study of Mus musculus with 18 samples.

Results

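The 9 genes examined here belong to the progesterone and Indian hedgehog axis of the mouse uterus and were followed across uterus, eutopic endometrium and ectopic endometriotic lesions. They were chosen by name, with earlier results of these data known. The set holds the ligand gene Ihh, the hedgehog receptor gene Ptch1 and the hedgehog transcription factor gene Gli1. It also holds the stromal transcription factor genes Nr2f2 and Hand2 and the transcription factor genes Gata2 and Sox17. Fkbp5 and Zbtb16, which are induced by steroid receptors, complete it. The members are 9 of 22912 genes with a symbol on the array, measured by 13 probes. All 9 were among the 33178 features tested. The brightest probe stood for each gene. By RefSeq (GRCm38.p6), Ihh lies at chr1:74945315-74951672, Ptch1 at chr13:63508328-63573460 and Gli1 at chr10:127329882-127341579. Nr2f2 lies at chr7:70351946-70366746, Hand2 at chr8:57320983-57324517 and Gata2 at chr6:88193891-88207032. Sox17 lies at chr1:4490928-4497426, Fkbp5 at chr17:28398753-28486149 and Zbtb16 at chr9:48651797-48836225. Which exon or UTR each probe reads is not known here, as no probe sequence was used.

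In the uterus, progesterone acts through its receptor in the epithelium to induce Ihh. The Indian hedgehog protein leaves the epithelium and binds patched receptors on stromal cells. This frees the membrane protein smoothened, and GLI factors then switch on target genes that include Ptch1 and Gli1 themselves. In the stroma the pathway raises COUP-TFII, the product of Nr2f2, and HAND2 restrains fibroblast growth factors that would otherwise drive epithelial growth under oestrogen. GATA2 and SOX17 work beside the progesterone receptor upstream of Ihh. FKBP5 is a co-chaperone that holds steroid receptors in a less active state, and ZBTB16, also called PLZF, is a zinc finger factor that rises in decidualising stroma.

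The study had 6 groups of 3 arrays. PRCre mice, heterozygous for Cre placed under the progesterone receptor locus, were the controls, and ERBOE mice are described as overexpressing oestrogen receptor beta. Uterus was taken from unoperated females of either genotype at 12 weeks of age. Lesions (ectopic) grew from a single ERBOE or PRCre uterine fragment, punched at 2 mm, in intact wild-type C57BL/6J hosts that were 8 weeks old at surgery, so the host cells in a lesion carried neither allele. The eutopic samples were endometrium of ERBOE or PRCre mice of the same age at surgery, which carried a wild-type fragment, so lesions and eutopic samples were not from the same animals by this account. Lesions and eutopic samples were collected 4 weeks after surgery, and all tissues at estrus. Each array held RNA pooled from 3 animals, 9 animals per group. The labels leave a doubt, since a source field calls the ERBOE lesion and eutopic mice free of endometriosis and the account of the eutopic samples speaks of harvested lesions; the titles were followed. The labels give no promoter for the overexpressed receptor.

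Array quality limits what follows in 3 places. PRCre uterus replicate 1 was dim, with a 75th percentile signal of 239.6 where the other 17 arrays ran from 455.1 to 744.7. The slides were unevenly filled: eutopic arrays were absent from slide 1, and PRCre lesions from slide 3. Esr2, the gene of oestrogen receptor beta, differed between ERBOE and PRCre by -0.24 ± 0.20 log2 units (SE, n = 3 arrays per group) in uterus and by -0.26 ± 0.20 in lesions, and its value in eutopic endometrium is given with that comparison. No source used here says whether its probe lies inside the transgene. Of 9 endometrial stromal markers and 14 epithelial markers tested, all were well above background on every array of all 6 groups. Adipocyte markers averaged 1.16 to 3.75 on lesion arrays and -3.92 to 0.09 on the other arrays.

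Levels are given as log2 signal minus the array's 75th percentile, so 0 means a spot as bright as that percentile, and a difference of 1 is a 2-fold change. Levels of different genes come from different probes and are not set against each other. A difference was called when its limma p-value, adjusted by Benjamini-Hochberg over all 33178 features, was under 0.05.

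Promoter sequence is shown for Ihh, Nr2f2 and Hand2, 3 of the genes that followed one another from array to array. Ptch1, which followed Ihh most closely, also had a window, and it is not printed here. RefSeq's table (GRCm38.p6) held windows for 6 of the 9 genes, and none of Gli1, Sox17 and Zbtb16 had one. Each run is the 250 bases before the annotated start, 5′ to 3′ on the gene's strand. Capitals mark the GLI core GGGTGG.

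Ihh (chr1:74951673-74951922, minus strand): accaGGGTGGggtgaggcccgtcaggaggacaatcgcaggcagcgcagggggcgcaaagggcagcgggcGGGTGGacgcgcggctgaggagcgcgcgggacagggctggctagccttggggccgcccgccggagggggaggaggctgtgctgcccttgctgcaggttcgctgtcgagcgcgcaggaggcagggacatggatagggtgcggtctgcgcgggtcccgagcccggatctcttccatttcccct
Nr2f2 (chr7:70366747-70366996, minus strand): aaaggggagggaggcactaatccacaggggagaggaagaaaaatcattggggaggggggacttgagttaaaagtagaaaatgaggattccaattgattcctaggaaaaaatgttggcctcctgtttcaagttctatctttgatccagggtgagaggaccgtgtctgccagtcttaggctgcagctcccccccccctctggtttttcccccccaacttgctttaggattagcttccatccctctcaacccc
Hand2 (chr8:57320733-57320982, plus strand): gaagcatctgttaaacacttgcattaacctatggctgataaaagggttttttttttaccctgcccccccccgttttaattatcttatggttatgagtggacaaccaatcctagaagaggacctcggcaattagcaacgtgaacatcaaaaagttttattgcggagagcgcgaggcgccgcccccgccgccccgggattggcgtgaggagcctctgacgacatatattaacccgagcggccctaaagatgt

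Motifs were searched on either strand as plain letters. The GLI core GGGTGG occurred 2 times in the Ihh window and in no other window of the 6 genes, while 28.1% of 32851 promoter windows of that length held it. The longer GLI consensus TGGGTGGTC, which contains the core, was in none of these windows and in 0.225% of all. The GATA letters AGATAA occurred 1 time, in the Hand2 window, against 9.99% of all windows. The half-site AGAACA, read by the progesterone and glucocorticoid receptors, was in none of them and in 16.1% of all windows. These are matches of letters in short windows only.

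Ihh, the ligand gene, varied more between arrays than nearly any other feature. In PRCre uterus its level was -4.43, -1.87 and 2.00 on replicates 1 to 3, and in ERBOE uterus it was -2.40, -1.87 and -0.98. In PRCre eutopic endometrium it was 1.19, -2.61 and -4.76, against 1.21, 3.03 and 0.94 in ERBOE eutopic endometrium. In lesions it was -2.46, -6.41 and -2.89 for PRCre and -4.55, 3.38 and -4.10 for ERBOE. ERBOE eutopic endometrium was thus the only group in which all 3 arrays lay above the 75th percentile, and 1 array each of PRCre uterus, PRCre eutopic endometrium and ERBOE lesions reached the same range. The whole range over the 18 arrays was 9.80 log2 units, or 889-fold, and the lowest values were not well above background on 4 arrays, which makes that range approximate at its lower end.

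Ptch1, the receptor gene that hedgehog signalling induces, had a similar order of arrays over a smaller range. Its level ran -4.30, -2.66 and -1.36 in PRCre uterus and -2.88, -3.19 and -2.25 in ERBOE uterus. Eutopic endometrium had -1.93, -3.24 and -3.54 in PRCre and -2.28, -0.61 and -1.86 in ERBOE. Lesions had -3.60, -3.77 and -2.77 in PRCre and -3.62, -0.90 and -3.77 in ERBOE. The single bright Ptch1 array among the lesions, ERBOE replicate 2, was also the single bright array for Ihh there. Ptch1 was well above background on 16 of 18 arrays.

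Gli1, the transcription factor gene that serves as the usual readout of active hedgehog signalling, was well above background on all 18 arrays. It was 0.77, 3.65 and 4.10 in PRCre uterus and -0.95, 1.88 and 3.21 in ERBOE uterus. In eutopic endometrium it was 2.90, -0.41 and 0.88 in PRCre and 2.95, 4.56 and 3.70 in ERBOE, so that the lowest ERBOE array lay just above the highest PRCre array. In lesions it was 0.38, -1.42 and 1.67 in PRCre and -0.02, 3.15 and 0.88 in ERBOE, and the groups overlapped.

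**Figure D1:**
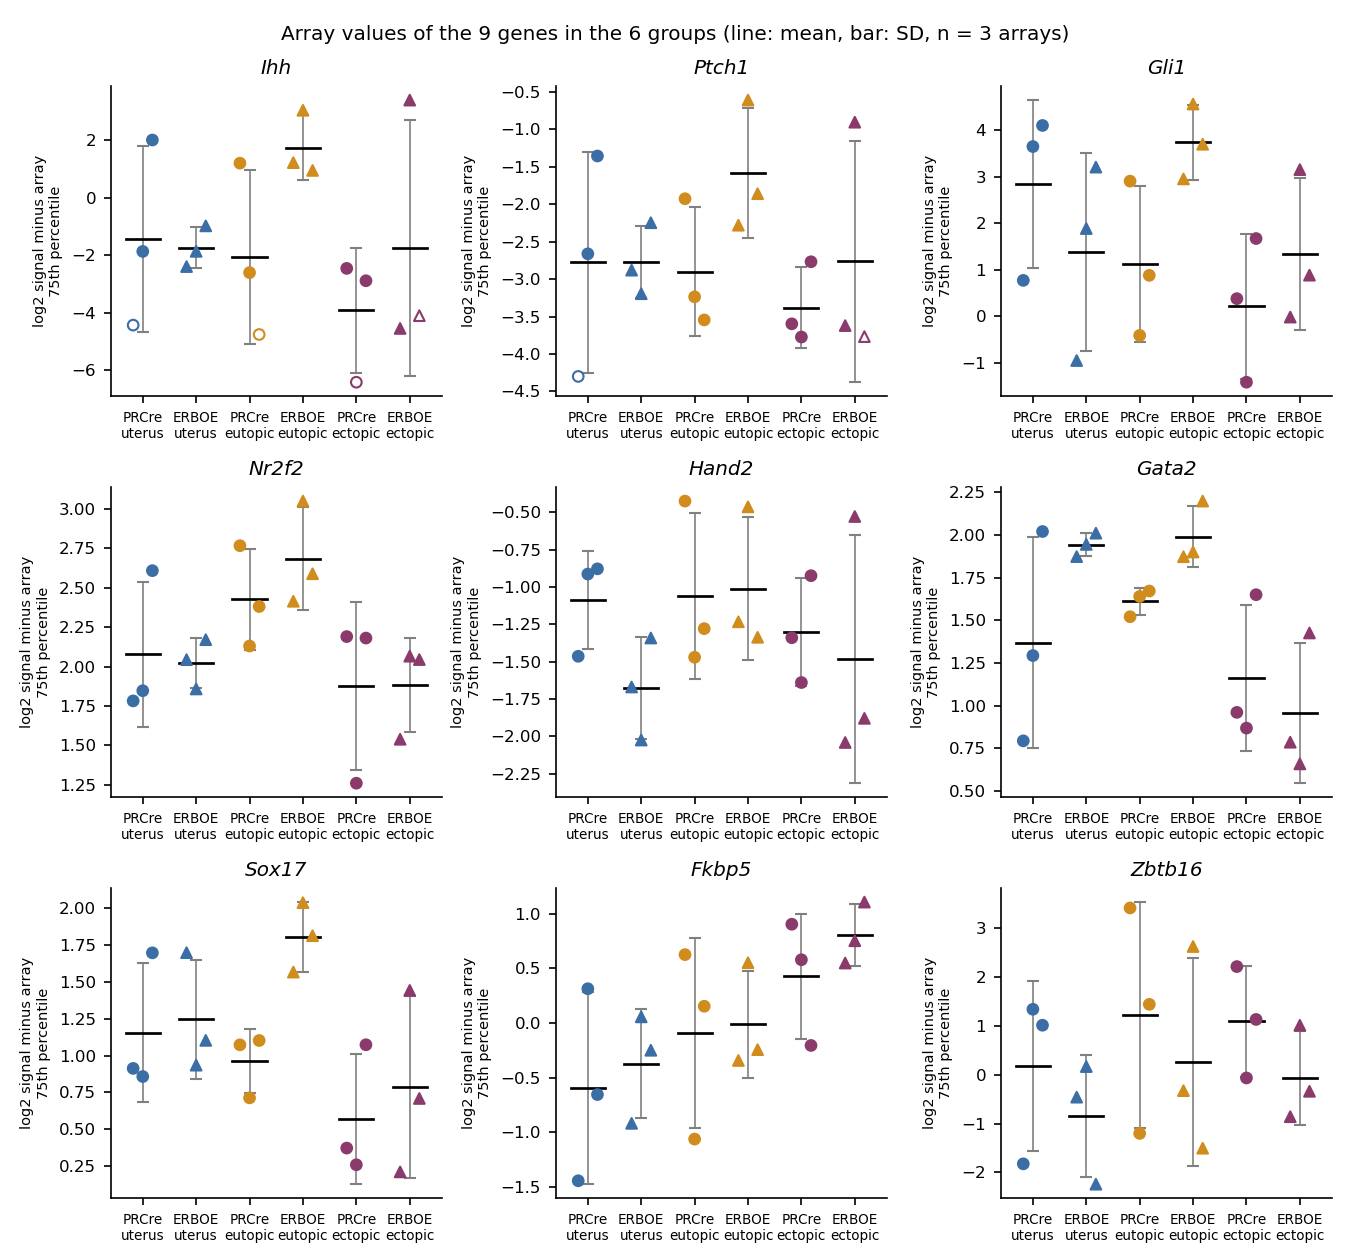
Level of each gene (vertical axis, log2 signal minus the array's 75th percentile, with its own scale per panel) in the 6 groups (horizontal axis). Points are arrays, triangles are ERBOE and circles PRCre, open symbols were not well above background, lines are means and bars are SD over 3 arrays. Ihh spans 9.80 log2 units and Gata2 1.54, and ERBOE eutopic endometrium has the highest mean for 7 of the 9 genes.

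The spread inside the groups set the 9 genes apart from one another. Ihh had a standard deviation within groups of 2.77 log2 units, larger than that of 99.9% of 31556 features. Zbtb16 (1.67, larger than 98.6%), Gli1 (1.65, larger than 98.5%) and Ptch1 (1.06, larger than 90.5%) were also widely spread. The 5 other genes were not: Fkbp5 had 0.64, Hand2 0.51, Sox17 0.42, Nr2f2 0.37 and Gata2 0.36, against a median of 0.48 over all features. The share of variance that lay between the 6 groups was highest for Gata2 at 62.9% and Sox17 at 56.5%, was 35.3% for Ihh and 20.8% for Zbtb16, and had a median of 32.3% over all features.

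ERBOE eutopic endometrium had the highest mean for Ihh, Ptch1, Gli1, Nr2f2, Hand2, Gata2 and Sox17, while PRCre lesions had the lowest mean for 5 of the 9 genes. Ordered by mean, Ihh ran from 1.73 ± 1.14 (SD, n = 3) in ERBOE eutopic endometrium through -1.43 ± 3.24 in PRCre uterus, -1.75 ± 0.71 in ERBOE uterus, -1.75 ± 4.46 in ERBOE lesions and -2.06 ± 3.01 in PRCre eutopic endometrium to -3.92 ± 2.17 in PRCre lesions. No step in that order exceeded the larger of the neighbours' standard deviations. Over the 9 genes, 2 of 45 such steps did: the step of Sox17 from ERBOE eutopic endometrium (1.81 ± 0.24) to ERBOE uterus (1.25 ± 0.40), and that of Gata2 from ERBOE uterus (1.94 ± 0.07) to PRCre eutopic endometrium (1.61 ± 0.08).

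No difference of a member passed the threshold. Over 12 comparisons and 108 tests of the 9 genes the smallest adjusted p was 0.147 in limma, for Gata2 in ERBOE lesions against ERBOE uterus, and 8 tests had an unadjusted p under 0.05. Those 8 were 1 of 9 members for genotype in eutopic endometrium (2.94% of features), 3 for ERBOE lesions against eutopic endometrium (10.6%), 2 for ERBOE lesions against uterus (11.9%), 1 for ERBOE eutopic endometrium against uterus (3.34%) and 1 for the genotype effect in eutopic endometrium against that in uterus (5.1%). With 3 arrays a side, wide intervals remain, and a difference that missed the threshold is not shown to be absent.

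The comparison of ERBOE with PRCre eutopic endometrium asks how the genotypes differ in the endometrium of mice that carry a lesion, a tissue in which Esr2 itself differed by 0.01 ± 0.20. Ihh was 3.78 ± 2.06 log2 units higher in ERBOE (SE; 95% interval -0.62 to 8.19), Gli1 2.61 ± 1.23 (-0.02 to 5.25) and Ptch1 1.32 ± 0.80 (-0.40 to 3.04), and none of the 3 passed. Sox17 was the member nearest the threshold, with a difference of 0.84 ± 0.34 (0.11 to 1.57) and an adjusted p of 1.00 in limma. Its arrays read 1.57, 2.04 and 1.81 in ERBOE and 1.07, 0.71 and 1.10 in PRCre, without overlap. Sox17, Gli1 and Gata2 were the 3 of 9 genes whose groups did not overlap, where 9.06% of all features did not, and the 0 members called stand beside 0% of features called. The differences were positive for 8 of the 9 genes, with a median of 0.38 against -0.01 over all features, but the signs of Hand2 (0.05 ± 0.41), Fkbp5 (0.08 ± 0.49) and Zbtb16 (-0.95 ± 1.25) each turned under at least 1 other setting.

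Within slides the eutopic differences held their sign for the hedgehog genes. Ihh differed by 5.97 on slide 2 and 2.69 on slide 3, Gli1 by 2.07 and 2.88, and Ptch1 by 1.26 and 1.35. Slide 2 held only 1 eutopic array of each genotype. Ihh on its PRCre array, at -4.76, was not well above background, so that slide's Ihh difference is imprecise. Sox17 differed by 0.46 and 1.03. Uterine gland markers, which mark the epithelium of the endometrial glands, averaged -2.25, 2.25 and -3.10 on the ERBOE arrays and 0.70, -3.54 and -1.24 on the PRCre arrays. Epithelial markers averaged 2.46, 1.94 and 2.61 in ERBOE and 1.16, 3.85 and 3.22 in PRCre, with 14 of 14 lower in ERBOE. Smooth muscle markers were lower for 9 of 9 (median -0.40), none called. Ciliated cell markers averaged -3.83, -0.95 and -3.90 on the PRCre arrays. The part of these cells in these differences was not tested.

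In the uterus without surgery the same comparison gave no call, with 0 members and 0% of features called. Ihh differed by -0.32 ± 2.06, Ptch1 by -0.00 ± 0.80 and Gli1 by -1.46 ± 1.23. Gata2 was the member with the smallest p, at 0.57 ± 0.30 (95% interval -0.07 to 1.22, adjusted p = 0.552 in limma), and no member's groups were without overlap, against 14.7% of features. Same-numbered uterus arrays shared a slide, and within slides 1, 2 and 3 Gli1 differed by -0.90, -1.76 and -1.72 and Hand2 by -0.46, -1.11 and -0.21, so that both were lower in ERBOE on every slide. Ihh differed by -2.98, 0.00 and 2.03 on these slides, without a common sign. The slide 3 value rests on PRCre uterus replicate 1, the dim array, where Ihh was not well above background. Epithelial markers averaged 1.43 to 2.35 in PRCre uterus and 2.69 to 3.61 in ERBOE uterus, while 3 sets were lower in ERBOE without overlap. Mast cell markers averaged -0.63 to -0.28 in PRCre and -2.23 to -1.61 in ERBOE. NK and T cell markers averaged -0.46 to -0.37 and -1.72 to -1.31. Endometrial stromal markers averaged 3.83 to 3.97 and 3.26 to 3.57, with 6 of 9 lower. No gene of these 4 sets was called, and their part in the members' values was not tested. The median of all features was itself -0.11 in this comparison.

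Between the genotypes, no member differed in lesions beyond its test, and the arrays of every member overlapped. Ihh was 2.17 ± 2.06 higher in ERBOE lesions (95% interval -2.24 to 6.57), a mean lifted by ERBOE replicate 2, at 3.38; the difference was 6.27 on slide 1, which held that array, and 0.33 on slide 2. The other differences ran from -1.16 ± 1.25 for Zbtb16 to 1.13 ± 1.23 for Gli1. Again 0 members and 0% of features were called, and 11.4% of features had groups without overlap.

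The genotype effect was also compared between tissues. The ERBOE minus PRCre difference of Gli1 was 4.08 ± 1.74 log2 units larger in eutopic endometrium than in uterus (95% interval 0.35 to 7.80, adjusted p = 0.947 in limma). Ihh was at 4.10 ± 2.91 and Ptch1 at 1.32 ± 1.14, with intervals that include 0. Between lesions and uterus, Gata2 had the smallest adjusted p of any member in these contrasts, with a genotype difference of -0.78 ± 0.43 (95% interval -1.69 to 0.13, adjusted p = 0.789 in limma), and Gli1 was at 2.59 ± 1.74. The median of all features was 0.11 in the contrast of eutopic endometrium with uterus, and 0 features were called in any of the 3 contrasts between tissues.

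**Figure D2:**
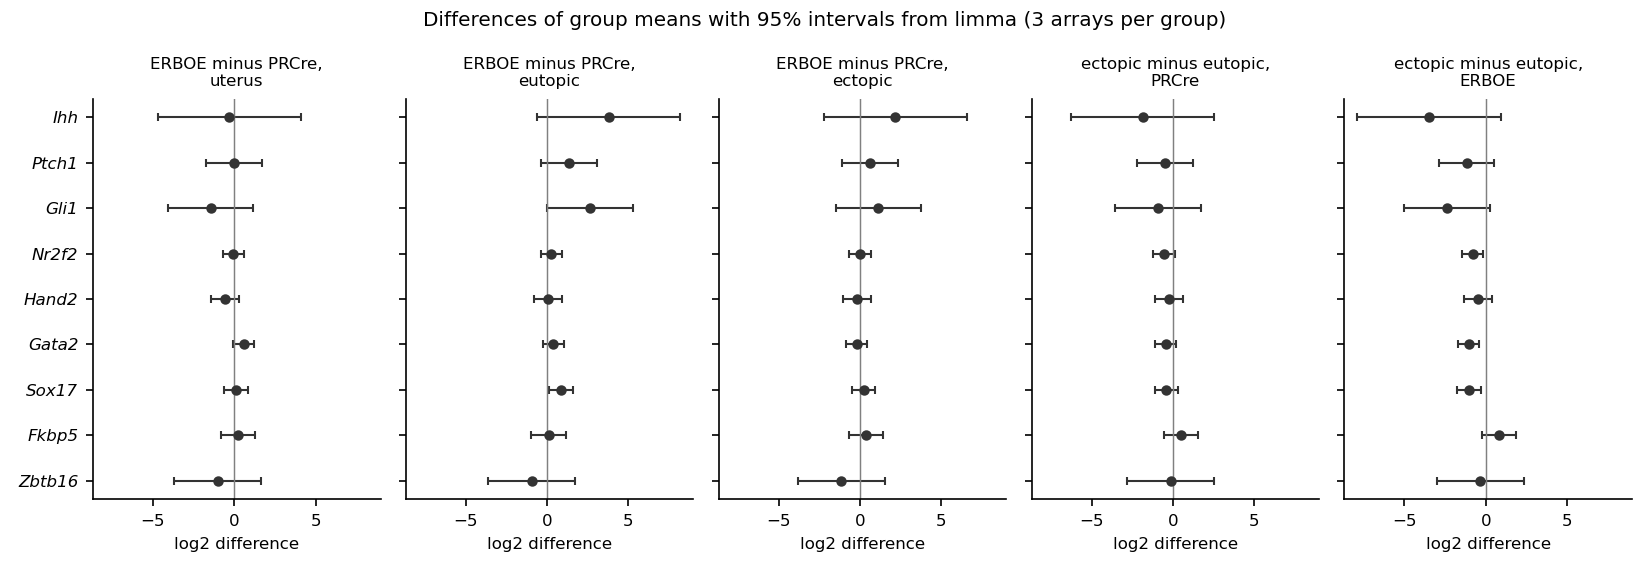
Differences of group means (horizontal axis, log2 units) for the 9 genes (rows) in 5 comparisons (panels), with 95% intervals from limma over 3 arrays per group. Ihh has the widest intervals and Gata2 the narrowest, and Gata2, Sox17 and Nr2f2 lie below 0 in ERBOE lesions against ERBOE eutopic endometrium.

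Lesions were then set against eutopic endometrium. In bulk tissue, fewer cells of a type and less RNA per cell cannot be told apart. In ERBOE, Gata2 read 0.79, 0.66 and 1.43 in lesions and 1.87, 1.90 and 2.20 in eutopic endometrium, a difference of -1.03 ± 0.30 (95% interval -1.68 to -0.39, adjusted p = 0.181 in limma). Sox17 read 0.21, 1.44 and 0.71 in lesions, each below the lowest eutopic array, and differed by -1.02 ± 0.34 (adjusted p = 0.269 in limma). Nr2f2, the COUP-TFII gene, read 1.54, 2.07 and 2.04 in lesions and 2.41, 3.05 and 2.59 in eutopic endometrium, and differed by -0.80 ± 0.31 (adjusted p = 0.358 in limma). These 3 of 9 genes had groups without overlap, where 20.3% of all features did, and 0 members were called, where 0.6% of features were. When arrays were weighted by their quality, Gata2 (-0.90 ± 0.23, adjusted p = 0.0458 in limma) and Sox17 (-1.22 ± 0.28, adjusted p = 0.0300 in limma) did pass, and 1256 features passed beside them.

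Differences in the same comparison were larger but less certain for the hedgehog genes. Ihh was at -3.48 ± 2.06 (95% interval -7.89 to 0.92), Gli1 at -2.40 ± 1.23 and Ptch1 at -1.18 ± 0.80, with replicate 2 the highest lesion array for each of them. On slides 2 and 3, which did not hold that array, Ihh differed by -5.31 and -6.53, Gli1 by -2.07 and -4.15, and Ptch1 by -1.49 and -2.39. The ERBOE lesion array on slide 2 was not well above background for Ihh or Ptch1, so these differences are imprecise on that slide. Gata2 differed on slides 2 and 3 by -0.45 and -1.26, and Sox17 by -0.86 and -1.71. The median of all features was -0.13 in this comparison and that of the members -1.02, with 8 of 9 below 0. Fkbp5 alone was higher in lesions, at 0.81 ± 0.49.

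Other cell types moved with the lesions. Adipocyte markers averaged 3.25 to 3.75 in ERBOE lesions and -3.58 to 0.06 in ERBOE eutopic endometrium, with 6 of 8 called higher. Plin1, whose product coats fat droplets, was 6.38 ± 0.82 higher (adjusted p = 0.00292 in limma) and well above background on 2 of the 3 eutopic arrays. Macrophage markers averaged 1.41 to 2.56 in ERBOE lesions and 0.31 to 1.40 in eutopic endometrium, with 6 of 6 higher and none called. No adipocyte marker was below background throughout the lesions or the eutopic arrays. Over the 18 arrays the adipocyte mean had a correlation of -0.67 with Gata2, -0.56 with Sox17 and 0.67 with Fkbp5, as a description. The macrophage mean had -0.67 with Gata2, -0.70 with Sox17 and -0.69 with Nr2f2. It also had -0.72 with Gli1, -0.60 with Ihh, -0.60 with Ptch1 and -0.55 with Hand2, against -0.24 with Zbtb16 and 0.27 with Fkbp5. Mast cell markers averaged -0.44 to 0.06 in ERBOE lesions and -1.36 to -0.55 in ERBOE eutopic endometrium, with 7 of 7 higher. Smooth muscle markers were lower for 9 of 9 (median -0.43) and gland markers for 5 of 6 (median -1.96), and none of these 3 sets had a call. The part of these cells in the members' differences was not tested.

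In PRCre mice the same comparison gave -0.45 ± 0.30 for Gata2, -0.39 ± 0.34 for Sox17, -0.55 ± 0.31 for Nr2f2, -1.86 ± 2.06 for Ihh and -0.91 ± 1.23 for Gli1. Here 0 members were called beside 0.00301% of features, and every member's groups overlapped, where 6.72% of features' groups did not. The difference between the genotypes was itself tested and was -0.58 ± 0.43 for Gata2 (95% interval -1.49 to 0.33) and -0.62 ± 0.48 for Sox17 (-1.66 to 0.41), so neither interval leaves out 0.

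Lesions were also set against uterus of unoperated mice, a comparison that shares the lesion arrays with the one before. Gata2 was -0.99 ± 0.30 in ERBOE (95% interval -1.63 to -0.34, adjusted p = 0.147 in limma), from 1.87, 1.94 and 2.01 in uterus, and -0.21 ± 0.30 in PRCre. It was lower in ERBOE lesions on all 3 slides, by -1.35, -0.52 and -1.09. With array weights the ERBOE difference was -0.86 ± 0.23 and passed (adjusted p = 0.0368 in limma), where 2398 features did. Fkbp5 read 0.55, 0.75 and 1.11 in ERBOE lesions and -0.92, 0.06 and -0.25 in ERBOE uterus, 1.17 ± 0.49 higher (95% interval 0.12 to 2.23, adjusted p = 0.345 in limma), and 1.02 ± 0.49 higher in PRCre lesions. By the other Fkbp5 probe the differences were 1.96 ± 0.87 in ERBOE and 0.27 ± 0.87 in PRCre, so the probes differ most in PRCre. Gata2 and Fkbp5 were the 2 of 9 genes without overlap in ERBOE, against 20.2% of features, and 0 members were called against 1.24% of features. In PRCre, 0 members were without overlap against 14% and 0 were called against 0.00904%. Epithelial markers averaged 2.04 to 2.23 in ERBOE lesions and 2.69 to 3.61 in ERBOE uterus, with 13 of 14 lower (median -0.99). Endothelial markers were higher for 9 of 9 there (median 0.86), and neither set had a call. In PRCre lesions 11 of 14 epithelial markers were higher than in uterus. The part of these cells in the members' values was not tested.

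Averaging over both genotypes gave 6 arrays against 6, a test added after the data were seen. Gata2 then differed by -0.74 ± 0.21 between lesions and eutopic endometrium (adjusted p = 0.129 in limma) and Fkbp5 by 1.10 ± 0.35 between lesions and uterus (adjusted p = 0.124 in limma). Again 0 members were called, where 1.24% and 2.09% of features were. Averaged over the 3 tissues, ERBOE minus PRCre was 0.38 ± 0.20 for Sox17, the member with the smallest adjusted p (0.587 in limma), and 0 members were called against 0.0121% of features.

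Eutopic endometrium against uterus sets endometrium of operated mice against tissue labelled as uterus from mice without surgery, so the kind of tissue and the surgery cannot be told apart. In ERBOE, whose eutopic arrays also enter 2 of the comparisons already given, all 9 genes were higher in eutopic endometrium, with a median of 0.67 against 0.07 over all features, and none was called. Ihh was 3.48 ± 2.06 higher, Gli1 2.36 ± 1.23 and Ptch1 1.19 ± 0.80. Nr2f2 was 0.66 ± 0.31 higher (95% interval 0.00 to 1.32, adjusted p = 1.00 in limma). Ihh, Nr2f2 and Hand2 were the 3 of 9 genes without overlap, against 11.5% of features, and 0% of features were called. For Hand2 the gap was negligible, with the lowest eutopic array at -1.337 and the highest uterus array at -1.342. Epithelial markers averaged 1.94 to 2.61 in ERBOE eutopic endometrium and 2.69 to 3.61 in ERBOE uterus, with 12 of 14 lower. Gland markers were higher for 6 of 6 (median 1.76) and mast cell markers for 7 of 7 (median 0.71), none called, and the part of these cells in the members' values was not tested. In PRCre the differences went both ways, from -1.72 ± 1.23 for Gli1 to 1.04 ± 1.25 for Zbtb16, with 0 members without overlap against 9.71% and 0 called against 0%. The positive signs of Gata2 and Zbtb16 in ERBOE each turned under 1 other setting.

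Apart from the groups, the hedgehog genes varied together from array to array. Ihh and Ptch1 had r = 0.939 over 18 arrays (Spearman rho = 0.915), each with a permutation p of 1e-05, the smallest that 100000 resamples can give, and 0.00036 after adjustment over the 36 pairs of members. With group means removed r was 0.919, without the 2 arrays farthest from the median of Ihh it was 0.910, and within slides it was 0.871 and 0.973 over 7 arrays each (slide 1, with 4, was too small). Among 15514 symbols well above background on at least 9 arrays, Ptch1 was the closest match of Ihh and Ihh the closest match of Ptch1. This holds for the Ptch1 probe used, while the other Ptch1 probe had r = 0.43 with Ihh. These correlations were across arrays of different groups that share slides and scaling, and they are a description of these arrays. The members were chosen with earlier results of these data known, so the permutation p-values do not come from an independent choice of genes.

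Gli1 followed Ihh at r = 0.822 (rho = 0.787; adjusted permutation p = 0.00036 and 0.00162) and Ptch1 at r = 0.803. With group means removed these were 0.764 and 0.774. Gli1 ranked 38th of 15514 among the symbols most like Ihh. The other members ranked further down: Sox17 (r = 0.764, rho = 0.707) at 144, Nr2f2 (r = 0.740, rho = 0.616) at 225 and Hand2 (r = 0.713, rho = 0.647) at 342. Over all symbols, r with Ihh had a median of 0.04 and a 95th percentile of 0.64.

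**Figure D3:**
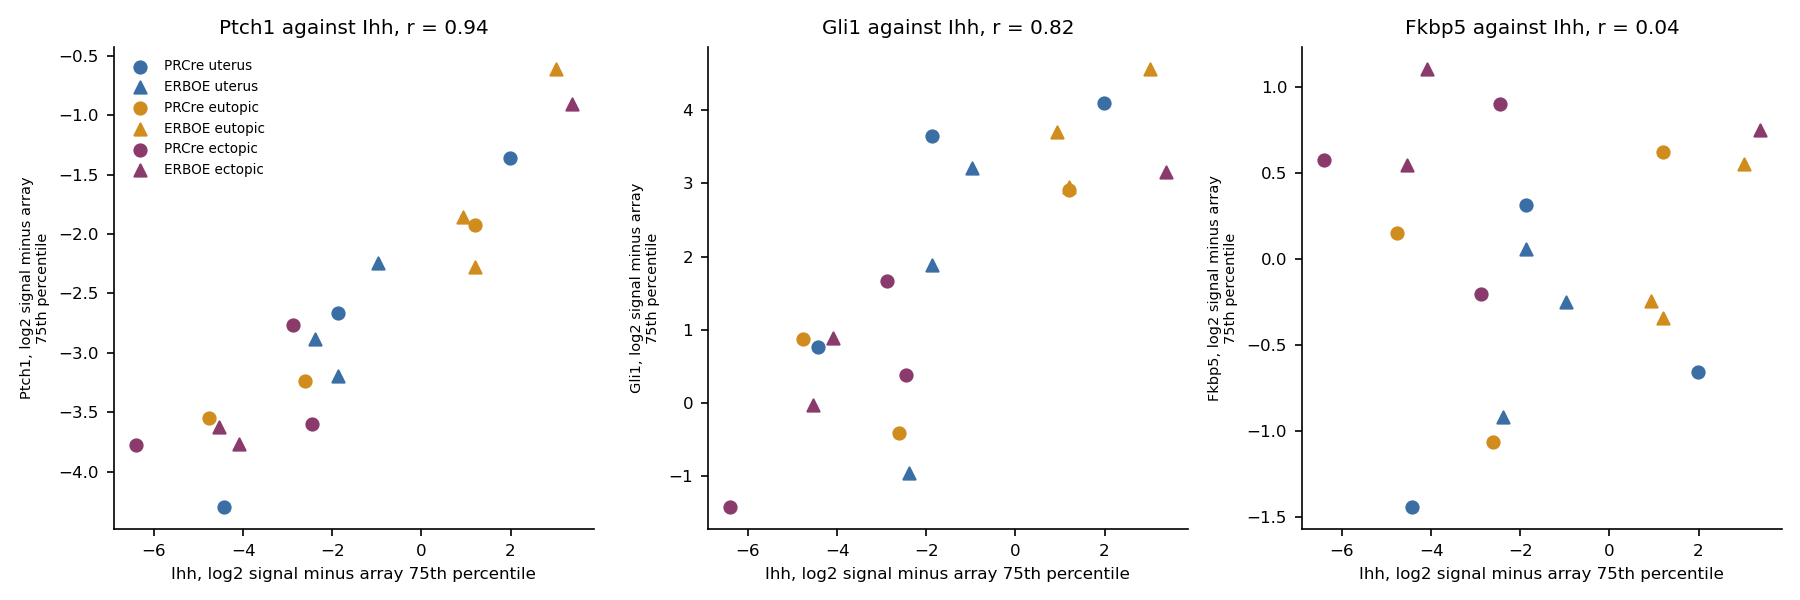
Level of Ptch1, Gli1 and Fkbp5 (vertical axes) against that of Ihh (horizontal axis), all as log2 signal minus the array's 75th percentile. Each point is 1 of 18 arrays, coloured by tissue, triangles for ERBOE and circles for PRCre. Ptch1 is higher where Ihh is higher (r = 0.94), apart from the arrays lowest in Ihh, where it shows no trend. Gli1 follows Ihh with more scatter (r = 0.82), and Fkbp5 has r = 0.04.

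Ptch1 has a further probe, and the probes disagree. The other Ptch1 probe covered a narrower range, from -3.26 to -1.99, and well above background on all 18 arrays, but had a correlation of only 0.28 with the probe used and 0.43 with Ihh. It was 0.61 ± 0.24 higher in ERBOE than in PRCre eutopic endometrium and differed by -0.66 ± 0.24 in uterus, a gap between the tissues of 1.27 ± 0.34, against 1.32 ± 1.14 for the probe used. The result for Ptch1 therefore rests on 1 of 2 probes, and where each lies in the gene was not examined. Their mean levels over the arrays were nearly equal, so the choice of the brighter probe was a close one. The further Sox17 probe differed by 0.89 ± 0.38 between genotypes in eutopic endometrium and by -0.72 ± 0.38 between ERBOE lesions and eutopic endometrium. Genes other than Ptch1 had probes closer to each other, with r between probes of 0.88 for Sox17, 0.94 for Zbtb16 and 0.76 for Fkbp5, the last over 17 arrays because 1 spot was an outlier.

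Gata2 and Sox17, which act beside the progesterone receptor, tracked each other at r = 0.649 (rho = 0.697), or 0.395 with group means removed. Gata2 followed Nr2f2 at r = 0.620 and Ihh at only 0.381. The latter was 0.686 without the 2 arrays farthest from the median of Ihh, but 0.183 with group means removed. Hand2 was close to Ptch1 at r = 0.761 (rho = 0.748) and, with group means removed, at 0.902. Without the 2 arrays farthest from the median of Ptch1 it was 0.625, and within slides 2 and 3 it was 0.529 and 0.767. Hand2 itself ranged only from -2.04 to -0.43, with -1.46, -0.91 and -0.88 in PRCre uterus and -1.67, -2.02 and -1.34 in ERBOE uterus.

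Fkbp5 and Zbtb16 followed Ihh less closely than Ptch1 and Gli1 did. Fkbp5 had r = 0.044 with Ihh (rho = -0.011), or 0.239 with group means removed, and Zbtb16 had r = 0.336 (rho = 0.232), or 0.587. With group means removed Zbtb16 also had 0.581 with Ptch1 and 0.562 with Gli1, and Fkbp5 had 0.524 with Gli1. With the mean of the 24 other hedgehog genes tested, Fkbp5 (r = 0.73) and Zbtb16 (r = 0.65) had the highest correlations of the 9 members, above Ptch1 (0.61), Gli1 (0.58) and Ihh (0.55). Fkbp5 and Zbtb16 followed each other at r = 0.541 (rho = 0.552; adjusted permutation p = 0.0419 and 0.0391), and at 0.384 without the 2 arrays farthest from the median of Fkbp5. Zbtb16 was -1.82, 1.34 and 1.01 in PRCre uterus, 3.41, -1.20 and 1.44 in PRCre eutopic endometrium and 2.21, -0.07 and 1.13 in PRCre lesions. It was -0.46, 0.17 and -2.24 in ERBOE uterus, -0.33, 2.62 and -1.50 in ERBOE eutopic endometrium and -0.86, 1.01 and -0.34 in ERBOE lesions. Every group of Zbtb16 overlapped every other group it was compared with. Of the 36 pairs of members, 32 had a positive r and 19 an adjusted permutation p under 0.05.

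**Figure D4:**
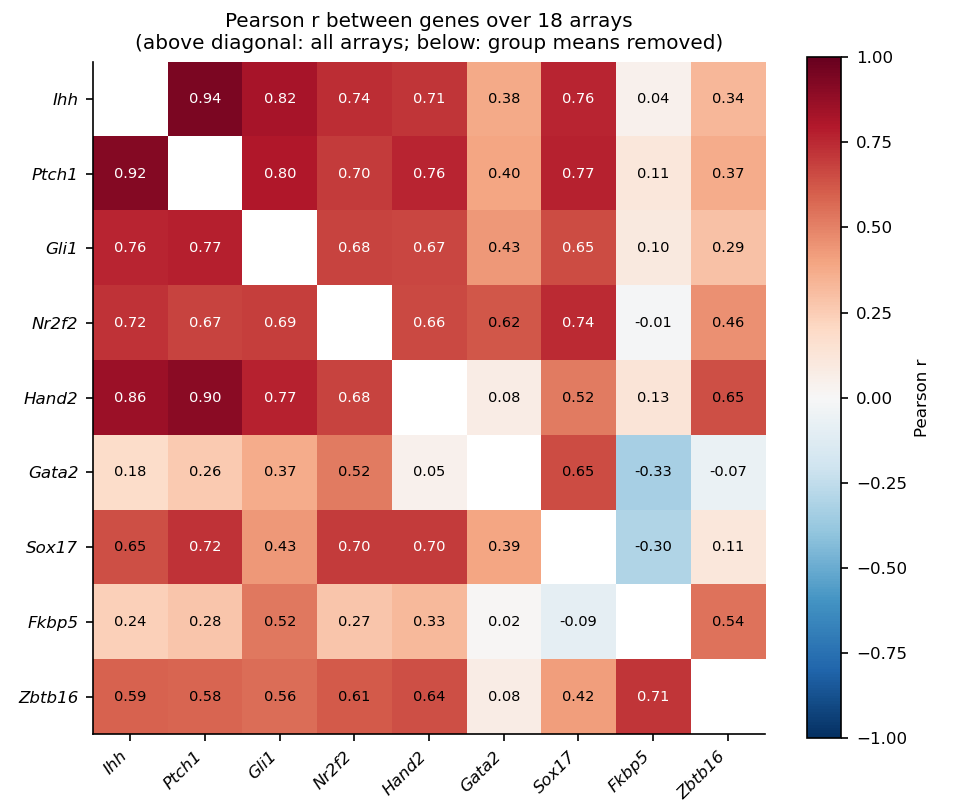
Pearson correlation between the 9 genes over 18 arrays, from the raw levels above the diagonal and with each group's mean removed below it. Red is positive and blue negative. The block of Ihh, Ptch1, Gli1, Nr2f2 and Hand2 holds values from 0.66 to 0.94 above the diagonal, and Fkbp5 lies between -0.01 and 0.13 with each of them.

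The genes most like each member over the arrays were mostly from outside the pathway lists. After Ptch1, Ihh was closest to Tada2a (r = 0.931) and Caprin2 (0.922), and after Ihh, Ptch1 was closest to Chst10 (0.934) and Cpne5 (0.931). Gli1 was closest to Zkscan8 (0.931), Tgif2 (0.931) and 5730408K05Rik (0.917). Nr2f2 was closest to Dync2li1 (0.903), Spin1 (0.891) and Tcea2 (0.872). Hand2 was closest to Zbtb20 (0.873), to Prdm1 (0.863), the gene of the repressor BLIMP1, and to Hoxa11os (0.850), the antisense transcript at a Hox gene of the uterus, which cannot be told from Hoxa11 unless the probe reads strand.

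The remaining members had neighbours of mixed function. Gata2 was closest to Ankmy2 (0.921), the ubiquitin ligase gene Nedd4l (0.913) and Zfp618 (0.902). Sox17 was closest to Msx1 (0.927), a homeobox gene of the uterine epithelium and stroma, to the Wnt receptor gene Fzd6 (0.890) and to Trim24 (0.870). Fkbp5 was closest to Sh2b3 (0.903), Flvcr1 (0.866) and Pelo (0.862). Zbtb16 was closest to Hif3a (0.945), a hypoxia-inducible factor gene that glucocorticoids raise, to Tcf23 (0.910), which is induced in decidualising stroma, and to the glucose-6-phosphate transporter gene Slc37a4 (0.902).

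Beyond the members, 24 of 26 listed hedgehog genes could be tested, Shh and Foxf2 being too dim, and none was called in any comparison. In ERBOE against PRCre eutopic endometrium 15 of 24 were higher, with a median of 0.26. Gli2, the gene of a GLI activator, was at 0.72 ± 0.42 there. Hhip, which binds and blocks hedgehog ligands, was well above background on all 3 ERBOE eutopic arrays and on 0 of the 3 PRCre eutopic arrays. It was dim, and well above background on only 9 of 18 arrays. The ERBOE eutopic arrays had 74.2, 72.9 and 64.1% of all spots well above background, and the PRCre ones 62.8, 68.7 and 61.0%. The Hhip counts therefore do not measure a difference in level. Scube2, which helps release the ligand, was at -1.25 ± 0.62. In ERBOE lesions against ERBOE eutopic endometrium 11 of 24 were higher and 13 lower, with Gli2 at -0.90 ± 0.42, the cyclin gene Ccnd2 at 1.02 ± 0.52 and the GLI target gene Foxf1 at 0.96 ± 0.43.

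Listed hedgehog genes also followed Ihh over the arrays to differing degrees, and those given here were picked out after their values were seen. The ciliary kinesin gene Kif7 had r = 0.77, the repressor gene Gli3 0.72, the ciliary gene Evc2 0.71 and the signal transducer gene Smo 0.64. Shares of symbols with a lower r were 99.3% for Kif7 and 94.8% for Smo. Others did not follow, with the co-receptor genes Gas1 at -0.08, Cdon at -0.04 and Boc at 0.08, and Mycn at -0.37. The mean of all 24 had r = 0.546 with Ihh (rho = 0.527), with an adjusted permutation p of 0.0706 for the former over 19 lists and marker sets.

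Uterine gland markers were the one set of the 19 whose mean passed against Ihh. The mean of 6 markers, among them the gland factor gene Foxa2 (r = 0.69 by itself), had r = 0.734 (rho = 0.715; adjusted permutation p = 0.0122 and 0.0226). With group means removed r was 0.755, without the 2 arrays farthest from the median of Ihh 0.617, and within slides 0.472 and 0.861. Some of the markers were dim: Cxcl15 was well above background on 5 of 18 arrays and Ttr on 3. In each lesion group 2 of 6 markers were well above background on all arrays and 2 on none, so low gland means are imprecise. In the lesions the gland mean was -2.59, -5.20 and -4.82 for PRCre and -4.30, 0.13 and -4.64 for ERBOE. There the array with the bright Ihh was also the one with gland markers near the 75th percentile. The match was looser elsewhere. In ERBOE eutopic endometrium Ihh was at 1.21, 3.03 and 0.94 and the gland mean at -2.25, 2.25 and -3.10. PRCre uterus replicate 2 had a gland mean of 0.68 with Ihh at -1.87. General epithelial markers did not rise with Ihh, with r = -0.282 (rho = -0.238). Whether gland content accounts for the Ihh values was not tested.

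**Figure D5:**
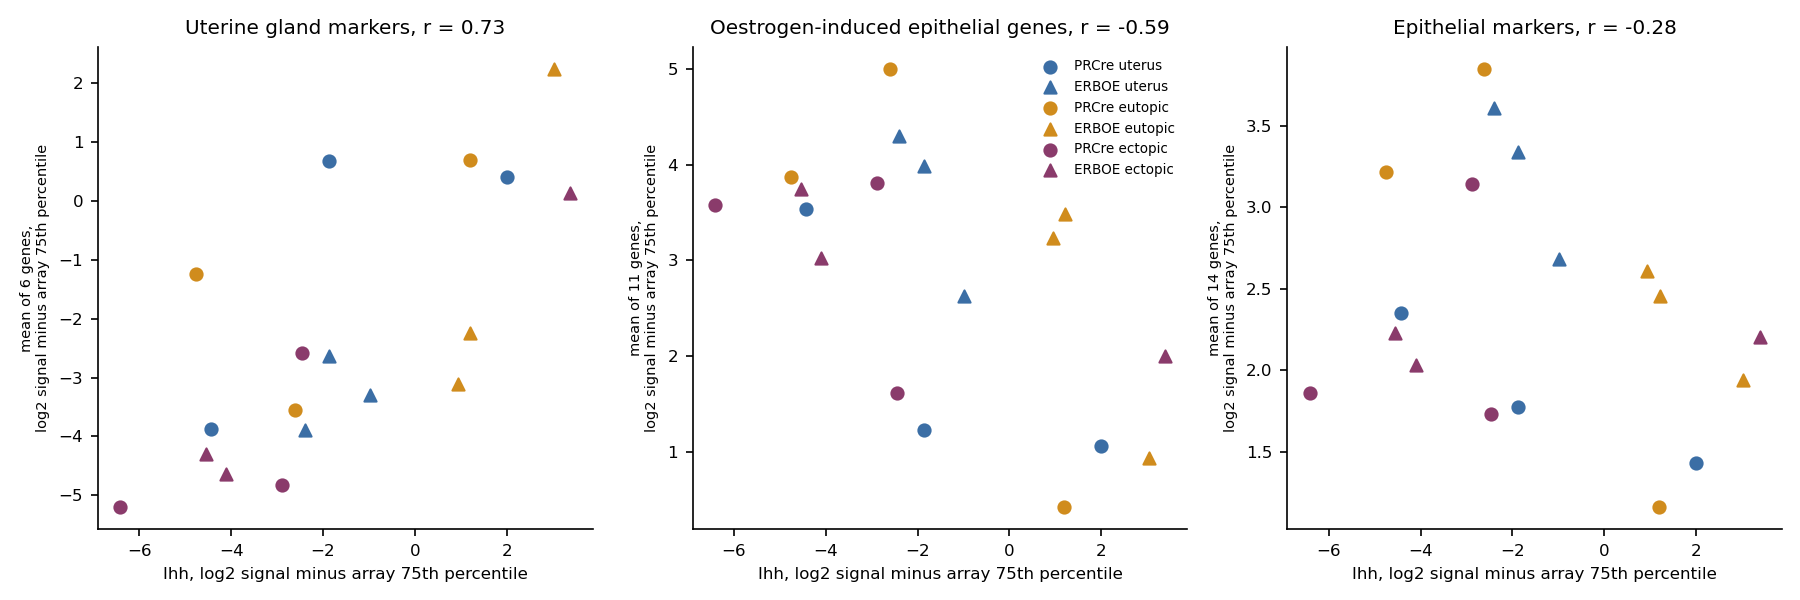
Mean level of 6 uterine gland markers, 11 oestrogen-induced epithelial genes and 14 epithelial markers (vertical axes) against Ihh (horizontal axis), all as log2 signal minus the array's 75th percentile. Each point is 1 of 18 arrays, coloured by tissue, triangles for ERBOE and circles for PRCre. The gland mean rises with Ihh (r = 0.73), while the oestrogen-induced mean has r = -0.59 and the epithelial mean r = -0.28.

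Genes that oestrogen induces and progesterone holds down in the epithelium, such as Ltf and Muc1, had negative correlations with Ihh, as macrophage markers did. The mean of 11 had r = -0.594 with Ihh (rho = -0.589), an adjusted permutation p of 0.0629 that missed the threshold, and -0.698 with group means removed. Without the 2 arrays farthest from the median of Ihh r was -0.504, and within slides 2 and 3 it was -0.188 and -0.753. The mean of 6 macrophage markers had r = -0.598 (rho = -0.610), the same adjusted permutation p of 0.0629, and -0.670 with group means removed. By the same checks r was -0.672 without those 2 arrays, and -0.507 and -0.862 within slides 2 and 3. In uterus 9 of 11 were higher in ERBOE, with a median of 1.58, Muc4 at 3.41 ± 1.59 and Ltf, the lactoferrin gene, at 3.26 ± 1.64. In eutopic endometrium 9 of 11 were lower in ERBOE, with a median of -0.43. None was called in either comparison, and in the uterus 13 of 14 epithelial markers were higher in ERBOE as well (median 1.57), while in eutopic endometrium 14 of 14 were lower (median -0.41), none called.

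Progesterone-responsive genes of other lists were mostly without calls. Of 17 progesterone-induced epithelial genes tested, 1 was called in any comparison: Acod1, an enzyme gene that activated macrophages also express, rose by 7.62 ± 1.62 in ERBOE lesions over ERBOE uterus (adjusted p = 0.0331 in limma; 1.24% of all features were called there), where macrophage markers averaged 1.41 to 2.56 against 0.17 to 0.84. In that comparison 10 of 17 were higher, with a median of 0.63. The mean of the 17 had r = 0.564 with Ihh (adjusted permutation p = 0.0706) and 0.816 with group means removed. Without the 2 arrays farthest from the median of Ihh r was 0.326, and within slides 2 and 3 it was 0.179 and 0.609. Pgr, the progesterone receptor gene, differed by -0.27 ± 0.59, 0.42 ± 0.59 and -0.22 ± 0.59 between genotypes in uterus, eutopic endometrium and lesions.

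Stromal genes of the progesterone and COUP-TFII list gave 0 calls among 19 in any comparison, the highest share over all features being 1.24%, in ERBOE lesions against uterus. Cebpb, a decidual transcription factor gene, was 1.10 ± 0.28 higher in ERBOE lesions than in ERBOE eutopic endometrium (adjusted p = 0.113 in limma), and Hoxa10 was at -0.94 ± 0.51. The list of fibroblast growth factor genes tied to HAND2, which also holds receptor genes and the adaptor gene Frs2, gave 0 calls among 8 genes, beside the same shares. The receptor gene Fgfr1 was 1.08 ± 0.30 higher in ERBOE lesions than in ERBOE uterus (adjusted p = 0.113 in limma), and Fgf18 was 1.41 ± 0.44 higher in ERBOE than in PRCre eutopic endometrium, where Hand2 differed by 0.05 ± 0.41. Of 12 genes that progesterone and glucocorticoid receptors induce, 10 were higher in ERBOE lesions than in ERBOE eutopic endometrium and 10 than in ERBOE uterus, none called. The latter were led by Cebpd at 1.56 ± 0.42 (adjusted p = 0.0909 in limma) and Dusp1 at 1.52 ± 0.61, beside Fkbp5 itself.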

How the data were processed

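Per the file headers, the authors' scanner files (Agilent Feature Extraction 11.0.1.1, 1 colour, grid mm9) hold spot intensity that was background-subtracted and detrended, not scaled between arrays. The authors' deposited log2 value table, with no method stated in the labels, matched those values scaled to the 75th percentile less a constant per probe (median SD of the difference over arrays 0.0192); its centring rule is unknown. Here control and outlier spots were dropped, log2 intensity less the array's 75th percentile was taken, spots of a probe averaged, and probes kept if well above background on at least 3 of 18 arrays. RefSeq's table (GRCm38.p6) named 33001 of 56605 probes. limma 3.58.1 (R 4.3.3) fitted 6 group means on all 18 arrays, with 2-sided tests and Benjamini-Hochberg adjustment over 33178 features at 0.05. The script was tested on simulated data. The number of arrays limits the precision.

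The members and lists were chosen with earlier results of these data known. Named list genes are those called or, failing that, up to 4 with the largest difference among genes without overlap, except 1 that is not reported here; the 3 symbols with the highest r stand for likeness. Alternatives were normexp (on median signals, since mean signals are not used here), quantile scaling, the value table, other filters, probe means, slide and replicate blocks, another variance model, array weights and leaving out each array. Replicate numbers pair arrays by the data in 2 comparisons: deviations of same-numbered arrays correlated at 0.313 to 0.449 between the genotypes' uteri, where such arrays share a slide, and at 0.137 to 0.345 between PRCre lesions and eutopic endometrium. The labels state no pairing. Permutation tests of correlations used 100000 resamples. A permutation test of 3 arrays against 3 cannot go below 0.1, so none is given.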

Additional observations from a re-analysis of the deposited data

How the results depend on the processing

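No member was called in any of the 12 comparisons under any alternative except array weights, which called 2 members in ERBOE lesions against eutopic endometrium (Gata2 and Sox17) and 1 against uterus (Gata2). Of 3081 member values under alternatives, 2936 kept the sign of the reported value and 145 did not, none of them a called value. With the replicate block 0 members were called (smallest adjusted p 0.0624 in limma) and with slide as a block 0 (0.0903). The replicate block moved 1 count by over 1.5 times, PRCre lesions against uterus, from 3 features to 15; there 2 of 6 arrays correlated best with their own number, against 6 of 6 in each comparison where the numbers pair arrays.

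Features called moved more. Array weights gave 9 for genotype in uterus, 5 for genotype in lesions, 26 and 1256 for lesions against eutopic endometrium in PRCre and ERBOE, and 72 and 2398 for lesions against uterus. Averaging (added after the data were seen) gave 4 for genotype over the tissues, 411 for lesions against eutopic endometrium and 693 for lesions against uterus. Normexp gave 2 for genotype in lesions, 8 for PRCre lesions against eutopic endometrium, 1 for PRCre eutopic endometrium against uterus and 113 for PRCre lesions against uterus. A filter on all 18 arrays gave 1, 0, 118 (ERBOE) and 10 in the order genotype in lesions, PRCre and ERBOE lesions against eutopic endometrium, PRCre lesions against uterus. Trended variance gave 1, 4 and 45 for genotype in lesions and PRCre lesions against eutopic endometrium and uterus, and quantile scaling 43 for the last. The cause was not tested, apart from fewer features under the stricter filter.

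Leaving out 1 array at a time kept 0 to 0 members called everywhere. Features called ranged over 0 to 3, 0 to 2 and 0 to 3 for genotype in uterus, eutopic endometrium and lesions. They ranged over 1 to 50 and 62 to 262 for lesions against eutopic endometrium in PRCre and ERBOE, 0 to 2 and 0 to 0 for eutopic endometrium against uterus, 1 to 65 and 115 to 553 for lesions against uterus, and 0 to 0, 0 to 1 and 0 to 0 for the contrasts between tissues. Both lowest ERBOE counts were without ERBOE lesion replicate 1. Ihh was not well above background on 4 arrays and Ptch1 on 2, so their lowest levels are imprecise.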
